A study of Mus musculus with 4 samples.

Results

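Fibroblast or tenocyte-like cells made up 65 of the 20850 cells that passed the study's limits on genes and mitochondrial reads, in single-cell RNA-seq libraries of sorted muscle stem cells (satellite cells) from mouse hindlimb. A cell was a member when it had 1000 to 5000 detected genes, at most 8% of its unique molecular identifiers (UMIs, each standing for 1 captured transcript) from mitochondrial genes, and at least 1 UMI in 3 or more of Pdgfra, Lum, Thbs4, Pi16, Fmod, Smoc2, Tnmd and Scx. A member also had at most 1 UMI of the satellite cell gene Pax7 and none of the endothelial gene Cdh5, the glial gene Sox10 or the leukocyte gene Ptprc. The members were thus chosen by their measured UMIs of these genes, and the levels of the 8 rule genes in them are given as a description. The list holds markers of tenocytes as well as of fibroblasts, and 1 cell need not carry both.

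There were 4 libraries, 1 per strain, each from the pooled lower hindlimbs of 2 mice. B10 was the healthy C57/Bl10ScsSn strain at 15 weeks and mdx was C57BL/10ScSn-Dmdmdx at 11 weeks, which carries the Dmd mutation of the mdx model of Duchenne muscular dystrophy. DBA was the healthy DBA/2 strain at 13 weeks and D2-mdx was D2.B10-Dmdmdx at 14 weeks, with the same mutation on the DBA/2 background. The ages are those of the sample labels, which do not wholly match the age range in the study's methods. All 4 were sorted for α7-integrin and VCAM1 and against Cd11b, Sca1, Cd45 and Cd31, and the transcripts were counted at their 3′ ends in 10X Genomics droplets. With 1 library per strain no difference between strains has a replicate check, no test was run, and strain, age and library cannot be told apart. Every interval below is a 95% interval for counting error only.

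Connective tissue cells of skeletal muscle build the matrix between the fibres. Fibro-adipogenic progenitors, marked by Pdgfra, lie in the interstitium, supply growth factors and matrix during repair, and are a source of fibrosis and fat in dystrophic muscle. A Pi16 and Dpp4 expressing fibroblast lies around vessels and in the fascia. Tenocytes, which form tendon and the ends of muscle at the myotendinous junction, express the transcription factors Scleraxis (Scx) and Mohawk (Mkx), the membrane protein tenomodulin (Tnmd) and the proteoglycan fibromodulin (Fmod).

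Members were few in both healthy strains and more frequent in both dystrophic ones. B10 held 1 member among 4762 cells (0.0210%, 0.000532 to 0.117%) and mdx held 17 among 6669 (0.255%, 0.149 to 0.408%). DBA held 4 among 3370 (0.119%, 0.0323 to 0.304%) and D2-mdx held 43 among 6049 (0.711%, 0.515 to 0.956%; exact Clopper-Pearson intervals). The intervals of B10 and mdx did not overlap, nor did those of DBA and D2-mdx. The share was 12.1 times as large in mdx as in B10 (1.90 to 507) and 5.99 times as large in D2-mdx as in DBA (2.18 to 23.0). Both folds moved with the rule. With at least 2 rule genes the ratio of mdx to B10 was 3.33 (1.35 to 9.84), and that of D2-mdx to DBA was 16.2 (2.68 to 660) with at least 4 rule genes. Between the healthy strains the ratio of DBA to B10 was 5.65, with an interval of 0.559 to 278 that includes 1.

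Between the dystrophic strains the ratio of D2-mdx to mdx was 2.79 (1.56 to 5.22). It was 2.13 (1.11 to 4.28) with at least 4 rule genes and 2.33 (1.28 to 4.43) without cells with a Pax7 UMI, and in 2 further settings its interval included 1. Members had a median of 10523 UMIs in mdx and 13010 in D2-mdx, and with every cell thinned to 3000 UMIs before the rule was applied there were 22 cells in mdx and 30 in D2-mdx, a ratio of 1.5 (0.839 to 2.74). Thinning also removes UMIs of the excluded genes, so cells can enter as well as leave. In D2-mdx 16 of 43 members also carried at least 3 markers of pericytes, smooth muscle or myogenic cells, against 1 of 17 in mdx, and without them the ratio was 1.86 (0.967 to 3.70). In these settings the ratio of D2-mdx to DBA was 3.34 (1.28 to 11.0) and 3.76 (1.31 to 14.8), and that of mdx to B10 was 15.6 (2.52 to 642) and 11.4 (1.77 to 479). All shares are of sorted cells, so the gate sets them as well as the tissue.

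**Figure D1:**
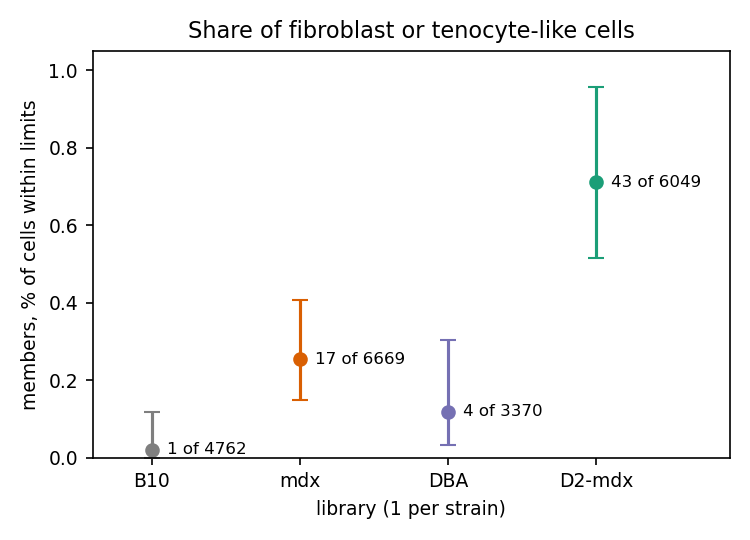
Share of members in each library (y axis, % of cells within the gene and mitochondrial limits) with exact 95% intervals as bars. B10 and DBA sit at 0.0210% and 0.119%, mdx at 0.255% and D2-mdx at 0.711%.

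The members did carry the transcripts of matrix-producing cells that the rule did not use. Dcn, which encodes the collagen-binding proteoglycan decorin, had a UMI in 65 of 65 members, with 1, 86 and 385 UMIs as the lowest, median and highest. Col1a2 was likewise found in all 65, Col3a1 in 64 and Col1a1 in 62. Summed over members, Dcn stood at 9116 CPM (UMIs per 1000000 UMIs of the summed cells) in mdx (8715 to 9531) and at 6700 CPM in D2-mdx (6487 to 6918), against 10.3 and 54.3 CPM in the myogenic cells of the same libraries. The B10 member had 109 Dcn UMIs of its 8812, and the 4 DBA members together had 787 of 48690. No library lacked the gene in its members.

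The values of the cells on either side of the threshold of 3 rule genes were as follows. The 20 members with exactly 3 rule genes had 8995 CPM of Dcn and 3826 CPM of Col1a1. The 54 cells with 2 rule genes that met the other conditions had 2097 and 539 CPM. They also held 5878 CPM of Acta2, the smooth muscle actin, against 2153 CPM in the 20 members just inside. Of the 489 Acta2 UMIs in those 20 members, 293 came from 1 D2-mdx cell and 177 from another. Of the 65 members 20 had 3 rule genes, 14 had 4, 22 had 5, 4 had 6, 4 had 7 and 1 had 8.

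Genes leading the members over all other cells within the limits were named by the mean log2 ratio in mdx and D2-mdx with a gene required in 10% or more of the members. Of the first 20, 6 were rule genes (Thbs4, Pdgfra, Pi16, Tnmd, Lum and Fmod). The others included the collagenase Mmp13, the stromelysin Mmp3, the tendon and cartilage proteins Chad, Comp and Kera, the complement component C7, the opioid precursor Penk and the transcription factor Hand2. Mmp3 stood at 193 CPM in mdx members and 749 CPM in D2-mdx members, and at 0.567 and 0.669 CPM in the other cells. Kera, which encodes keratocan, stood at 174 and 85.8 CPM against 0.195 and 0.216 CPM. C7 had 35 UMIs in mdx, of which 94.3% were in 1 cell, and 5 UMIs in D2-mdx. The choice of genes used these cells, so the order is a description.

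Rule genes were near 0 in the other classes of the same libraries. In D2-mdx, 1029 CPM of Lum in members compared with 1.68 CPM in myogenic cells and 4.48 CPM in pericyte-like cells, and 0.986% of the myogenic cells had a Lum UMI. Scx was the exception, with a UMI in 11.1% of D2-mdx myogenic cells (5.01% after thinning to 3000 UMIs) at 21.0 CPM, against 229 CPM in members.

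Transcripts of the sorting antigens followed the gate only in part. Itga7, which encodes α7-integrin, had a UMI in 4 of 65 members, at 4.70 CPM in mdx and 3.57 CPM in D2-mdx, against 83.9 and 75.5 CPM in myogenic cells. Vcam1 had a UMI in 33 members, at 65.8 CPM in mdx and 170 CPM in D2-mdx, against 619 and 592 CPM in myogenic cells. Ly6a, which encodes the excluded antigen Sca1, had a UMI in 35 members, at 1044 and 1115 CPM against 6.01 and 7.82 CPM. Pecam1 (Cd31) had 0 UMIs in 65 members, which allows up to 4.62% of cells with a UMI, and Itgam (Cd11b) had 1. Ly6a and Vcam1 were not spread evenly over the members, as the subgroups show.

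The following marker lists of other cell types summed to between 28.2 and 1011 CPM in members, with no reference class beside them. The 10 endothelial markers summed to 28.2 CPM in mdx and 51.8 CPM in D2-mdx members, led by Tek, with 2 and 7 of the 10 detected. The 12 leukocyte markers summed to 28.2 and 71.5 CPM, led by Lyz2, and the 12 myofibre markers to 79.9 and 92.9 CPM. The 10 perineurial markers summed to 47.0 and 94.7 CPM, led by Ntn4, and the 12 glial markers to 503 and 357 CPM, led by Scn7a in mdx and Pmp22 in D2-mdx. The 10 endoneurial markers reached 1011 and 763 CPM, led by Spp1, which had 86 of its 93 mdx UMIs in 1 cell. Cdh5, Sox10 and Ptprc are at 0 by the rule.

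Markers of the cells that make up most of these libraries were also detected. The 12 myogenic markers summed to 724 CPM in mdx and 742 CPM in D2-mdx members, against 4504 and 4057 CPM in myogenic cells. Chodl, a membrane lectin gene of satellite cells, made up 545 and 325 CPM of that, while Pax7 had 0 UMIs in mdx and 7 in D2-mdx. The rule allows at most 1 Pax7 UMI in a member, so the low Pax7 count is fixed in part. The 10 pericyte markers summed to 376 and 516 CPM, led by Pdgfrb, against 10693 and 11284 CPM in pericyte-like cells. The 9 smooth muscle markers summed to 65.8 CPM in mdx and 1524 CPM in D2-mdx, led there by Acta2 at 936 CPM. None of the 65 members was among the 921 cells with the highest Scrublet doublet scores, but how far mixed droplets account for the mural and myogenic UMIs in D2-mdx was not tested.

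**Figure D2:**
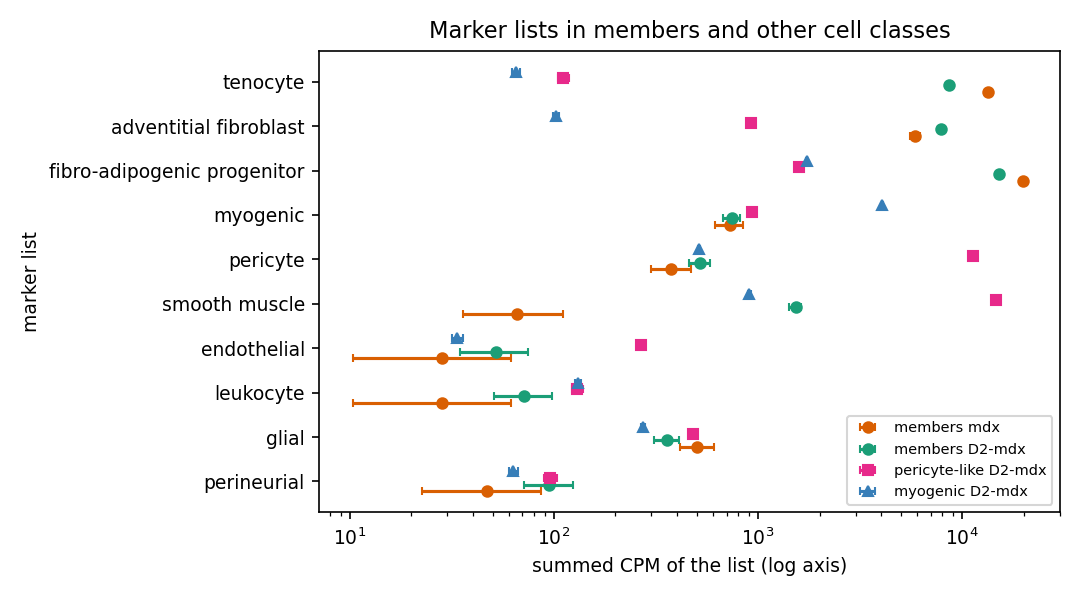
Summed CPM of each marker list (x axis, log scale) in the members of mdx and D2-mdx and in the pericyte-like and myogenic cells of D2-mdx, with exact Poisson 95% intervals. The tenocyte list stood at 13356 and 8663 CPM in members and at 111 and 64.8 CPM in the other classes, which the 4 rule genes in that list fix in part (4123 and 2574 CPM against 87.7 and 41.1 CPM without them), and the smooth muscle list at 65.8 CPM in mdx but 1524 CPM in D2-mdx members.

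Clustering the 65 cells without the 8 rule genes gave 3 subgroups. The largest held 31 cells (9 from mdx, 1 from DBA and 21 from D2-mdx), the next 24 (1 from B10, 7 from mdx, 2 from DBA and 14 from D2-mdx) and the smallest 10 (1 from mdx, 1 from DBA and 8 from D2-mdx). Since the clusters were drawn from these counts, their defining genes are described without a test. The rule genes were left out of the clustering but had chosen the members, so their counts by subgroup are a description too. Tnmd or Scx without Pdgfra was found in 24 of 31, 1 of 24 and 0 of 10 cells, and Pdgfra without Tnmd or Scx in 2 of 31, 17 of 24 and 10 of 10. Only 6 of the 65 members had UMIs of both kinds.

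The 31 cells of the largest subgroup were tenocyte-like as a group, although 1 D2-mdx cell had 0 UMIs of Thbs4, Fmod, Tnmd and Col1a1. That cell had 1 UMI of Scx, 13 of Des and 15 of Vcam1. Of the other cells 2 had Pdgfra without Tnmd or Scx and 1 had none of these genes, all from D2-mdx. All 17 genes of the tenocyte list were detected in the subgroup at a summed 18464 CPM, against 2707 and 1211 CPM in the other subgroups. Without its 4 rule genes the list stood at 5007, 1432 and 1203 CPM. Tnmd had a UMI in 27 of 31 cells (median 16, highest 53), Fmod in 29 (median 25, highest 260), Scx in 25 and Mkx in 21. Thbs4, a tendon thrombospondin, had a UMI in 30 cells with a median of 90 and a highest of 364. Comp (24 cells, 841 CPM), Col11a1 (28 cells, 782 CPM) and Chad (10 cells, 335 CPM) had no UMI in any of the other 34 members, which for counting error alone allows up to 8.82% of those cells with a UMI and sets no limit on how many express the gene. Mgp, matrix Gla protein, stood at 18980 CPM and Postn, periostin, at 2766 CPM. Vcam1 had a UMI in 22 of these cells, at 217 CPM, and Ly6a in 7, at 59.1 CPM. Chodl was found in 28 of them at 743 CPM, while Pax7, which the rule held to at most 1 UMI in a cell, was found in 3. At least 3 markers of pericytes, smooth muscle or myogenic cells were carried by 12 of the 31 cells, 11 from D2-mdx and 1 from mdx, and their part in these levels was not tested.

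The tenocyte-like cells differed among themselves in Mmp13, the interstitial collagenase. It had a UMI in 17 of the 31 (1 to 1007 UMIs, median 103 in those cells) and in none of the other 34 members. Of the 17, 3 were from mdx and 14 from D2-mdx, and the 14 cells without it were 6 from mdx, 7 from D2-mdx and 1 from DBA. The 2 sets of cells were close in depth, with median totals of 13850 and 12335 UMIs. The 17 cells with Mmp13 had 834 CPM of Tnmd and 1378 CPM of Fmod, and the 14 cells without it had 2064 and 4305 CPM. Lum ran the other way, at 1369 and 252 CPM, as did Postn, at 3832 and 1355 CPM. Thbs4 was found in all 17 and in 13 of the 14, at 8134 and 10050 CPM. The D2-mdx cells with 1007, 235 and 50 UMIs of Mmp13 had 0 UMIs of Tnmd and Scx. The cell with 1007 had 2 UMIs of Pdgfra and 1 of Fmod. The part of these cells in the split was not tested. The split was made on Mmp13 after its values were seen, so it carries no test.

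The 250 bases before the RefSeq start of 4 genes that mark the subgroups are printed here so that the regulatory sequence of the markers can be seen: Tnmd, Fmod and Mmp13 for the tenocyte-like cells and Dpp4 for the adventitial fibroblast-like cells. Sequences are from RefSeq, build GRCm38.p6, 5′ to 3′ on the strand of the gene, and end at the base before that start. In the GENCODE annotation of the same build Tnmd starts earlier, so that the last 28 bases of its window lie inside the gene, against 0 for the other windows. Capitals mark matches to the E-box CANNTG, the core bound by basic helix-loop-helix factors such as Scleraxis, or to TGANTCA, the core bound by AP-1 (Fos and Jun) dimers; both read the same on either strand.
Tnmd, chrX:133850758-133851007, plus strand: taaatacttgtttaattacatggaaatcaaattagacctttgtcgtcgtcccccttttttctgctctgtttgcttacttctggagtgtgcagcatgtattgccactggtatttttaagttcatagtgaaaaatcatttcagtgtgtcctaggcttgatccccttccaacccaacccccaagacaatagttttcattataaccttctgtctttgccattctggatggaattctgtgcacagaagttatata
Fmod, chr1:134037004-134037253, plus strand: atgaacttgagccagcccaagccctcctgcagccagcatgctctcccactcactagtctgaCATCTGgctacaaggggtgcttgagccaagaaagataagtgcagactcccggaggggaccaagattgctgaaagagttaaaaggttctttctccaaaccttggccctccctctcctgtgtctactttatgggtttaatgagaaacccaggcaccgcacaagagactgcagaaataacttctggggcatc
Mmp13, chr9:7272264-7272513, plus strand: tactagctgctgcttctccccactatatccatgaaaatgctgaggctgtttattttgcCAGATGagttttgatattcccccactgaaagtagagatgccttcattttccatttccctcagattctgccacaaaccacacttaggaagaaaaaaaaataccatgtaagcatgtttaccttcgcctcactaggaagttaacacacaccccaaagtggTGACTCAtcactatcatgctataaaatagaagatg
Dpp4, chr2:62412232-62412481, minus strand: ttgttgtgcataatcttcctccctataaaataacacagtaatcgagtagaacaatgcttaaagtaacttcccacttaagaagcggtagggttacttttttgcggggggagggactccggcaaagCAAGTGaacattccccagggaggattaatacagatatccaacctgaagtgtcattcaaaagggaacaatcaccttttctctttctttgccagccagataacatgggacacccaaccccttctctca
The Fmod, Mmp13 and Dpp4 windows each held 1 E-box and the Tnmd window held 0, while 66.2% of 32851 windows of the same length held at least 1. TGANTCA was found in the Mmp13 window alone among the 4, and 6.75% of all windows held it. Fos stood at 2468, 2601 and 707 CPM in the 3 subgroups, in the order in which they were introduced, and Jun at 2783, 3447 and 1894 CPM. A match is a description of letters and no measure of binding.

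The 24 cells of the next subgroup were led by H19, Eln, Col15a1 and Bmper and are called by Smoc2 and Col15a1. Smoc2, a calcium-binding matrix protein, had a UMI in 24 of 24 cells, with 1, 6.5 and 45 as the lowest, median and highest. Col15a1, a basement membrane collagen, had a UMI in 16 cells at 563 CPM, against 12.3 CPM in the tenocyte-like cells and 0 UMIs in the third subgroup. Pdgfra (19 cells, 453 CPM) and all 15 genes of the fibro-adipogenic progenitor list were detected, among them the chemokine Cxcl14 (1355 CPM), lipoprotein lipase Lpl (1405 CPM) and Gsn, gelsolin (8069 CPM). That list did not set them apart from the adventitial fibroblast-like cells: without its 2 rule genes it summed to 25648 CPM here, 24068 CPM there and 9195 CPM in the tenocyte-like cells, and Gsn stood at 7771 CPM in the adventitial fibroblast-like cells. Col3a1 stood at 13030 CPM, against 5157 CPM in the tenocyte-like cells, and Col1a1 at 5844 against 10496 CPM. Eln, elastin, stood at 912 CPM, but 184 of its 274 UMIs came from 1 mdx cell. The smooth muscle list reached 2651 CPM here, of which Acta2 made up 1605 CPM with a highest of 293 UMIs in 1 cell, and 5 of the 24 cells, all from D2-mdx, carried at least 3 markers of pericytes, smooth muscle or myogenic cells.

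The 10 cells of the smallest subgroup were adventitial fibroblast-like. By fold over the other members they were led by Efhd1, Cmah, Smpd3, Gap43, Dmkn and Sbsn. Of these Efhd1 alone is on the adventitial fibroblast list. Dmkn (382 CPM), Sbsn (219 CPM) and Krtdap (228 CPM), which are not on it, had a UMI in 6, 5 and 6 of the 10 cells. All 14 genes of that list were detected, at a summed 18907 CPM against 5930 and 4146 CPM in the others, and of the 5930 CPM in the tenocyte-like cells 5716 CPM was fibronectin (Fn1). Without the rule gene Pi16 the list stood at 15151 CPM, against 5920 and 3646 CPM. Pi16, a secreted peptidase inhibitor, had a UMI in 10 of 10 cells (3, 41.5 and 77 as the lowest, median and highest). Dpp4 (415 CPM), the complement regulator Cd55 (788 CPM), the protein C receptor Procr (610 CPM) and the semaphorin Sema3c (1260 CPM) were also found in every cell. Ly6a stood at 3934 CPM and was found in all 10, Cd34 at 1146 CPM and complement C3 at 1813 CPM. Tnmd, Scx, Fmod, Comp, Mgp and Cxcl14 had 0 UMIs in these cells, each of which allows up to 30.0% of 10 cells with a UMI or 24.4 CPM. None of the 10 carried at least 3 markers of pericytes, smooth muscle or myogenic cells.

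**Figure D3:**
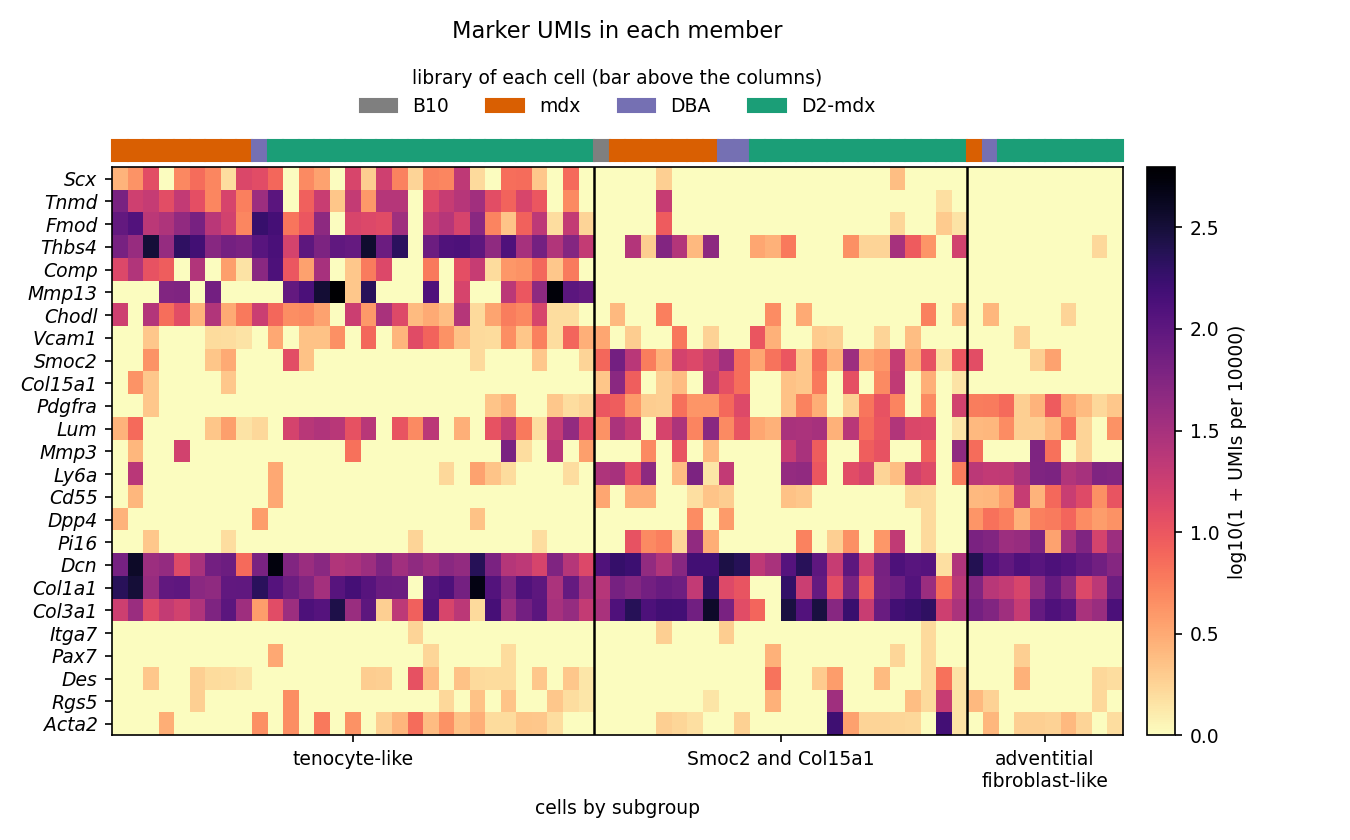
UMIs of marker genes in each of the 65 members (columns) as log10(1 + UMIs per 10000), with the library of each cell in the bar above and vertical lines between subgroups. Tendon genes fill the 31 columns on the left, Smoc2 the 24 in the middle and Pi16, Dpp4 and Cd55 the 10 on the right, while Dcn is dark in nearly every column.

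Secreted signals and matrix genes also differed by subgroup. Tgfb2 stood at 271 CPM in the tenocyte-like cells, 83.2 CPM in the Smoc2 and Col15a1 subgroup and 89.4 CPM in the adventitial fibroblast-like cells. Bdnf, the neurotrophin, stood at 138 CPM in the tenocyte-like cells and 2.36 CPM in all other members. Cxcl12, a chemokine of stromal cells, stood at 121, 380 and 32.5 CPM, and the alarmin Il33 at 4.92, 176 and 171 CPM. Ccl11, the eosinophil chemokine eotaxin, had 0 UMIs in the tenocyte-like cells and stood at 410 and 301 CPM in the others. The gelatinase Mmp2 was at 2055, 623 and 797 CPM and the inhibitor Timp1 at 1043, 346 and 56.9 CPM. Igf1 was found in 25, 16 and 9 cells, at 475, 463 and 138 CPM.

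**Figure D4:**
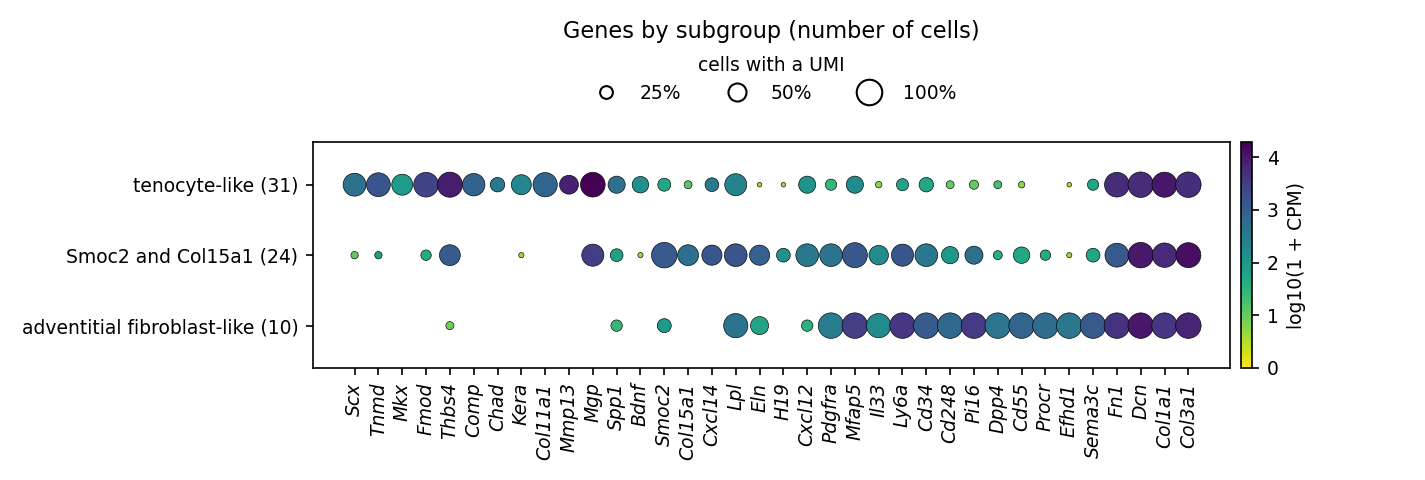
Genes (x axis) in the 3 subgroups (y axis, number of cells in brackets), with dot area as the share of cells with a UMI and colour as log10(1 + CPM). Comp, Mkx, Chad and Mmp13 have a dot in the tenocyte-like row alone, Procr and Dpp4 have their largest dots in the adventitial fibroblast-like row, and Dcn, Col1a1 and Col3a1 are large in all 3 rows.

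The healthy libraries gave too few members for a comparison across genes. The B10 member belonged to the Smoc2 and Col15a1 subgroup and had 8 UMIs of Pdgfra, 3 of Lum, 6 of Smoc2, 24 of Ly6a and 0 of Thbs4, Fmod, Tnmd and Scx. The DBA tenocyte-like cell had 260 UMIs of Fmod, 155 of Thbs4, 51 of Tnmd, 70 of Comp and 0 of Mmp13. The DBA adventitial fibroblast-like cell had 67 UMIs of Pi16 and 7 of Dpp4, and the other 2 DBA cells had 34 and 7 UMIs of Smoc2. All 3 subgroups were thus seen in DBA, at 1 or 2 cells each.

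For D2-mdx over mdx, 3569 genes reached 50 CPM in either library and 20 UMIs together, of which 245 (6.86%) were at least 2-fold higher in D2-mdx and 315 (8.83%) at least 2-fold higher in mdx. The median log2 ratio of all genes was 0.00. Of these genes 188 of the 245 and 214 of the 315 reached 50 CPM in the higher library alone and so had to differ, and for that reason the list counts and medians that follow describe the genes compared and support no direction. Of the 2518 genes with 50 CPM in both libraries, a setting chosen after seeing the data, 57 (2.26%) were past 2-fold in D2-mdx and 101 (4.01%) in mdx. Scaled by TMM instead of by total UMIs the counts were 297 and 266, and by DESeq2 size factors 296 and 278, so which side holds more genes depends on the scaling. The intervals of 38 and 57 genes lay wholly past 2-fold, but with 17 and 43 cells a single cell could set a value. The share of a gene's UMIs in its top cell is given for some of the genes where it did.

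Of 19 matrix proteases and inhibitors compared 2 were past 2-fold in D2-mdx, Mmp13 and Mmp3, and 0 in mdx, beside 6.86% and 8.83% of all genes, at a median log2 ratio of -0.12. Mmp13 had 232 UMIs in 3 of 17 mdx cells (1091 CPM, 955 to 1240) and 2942 UMIs in 14 of 43 D2-mdx cells (5258 CPM, 5070 to 5451), and 0 in the B10 and DBA cells. The log2 ratio was 2.27 (2.08 to 2.47), 2.63 without the top cell of each library and 2.31 among the tenocyte-like cells. Mmp3 followed, at 41 and 419 UMIs, with a log2 ratio of 1.96 (1.49 to 2.46) and 2.17 without the top cells. In both libraries the UMIs of Mmp13 came from few cells, with 34.2% of those of D2-mdx and 51.3% of those of mdx in the top cell.

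Of 8 fibrillar collagens compared 0 were past 2-fold in D2-mdx and 1 in mdx, against 6.86% and 8.83% of all genes (Col5a1, log2 ratio -1.46, -1.81 to -1.12), with a median of -0.49. Col1a1 stood at 9290 CPM in mdx and 7422 in D2-mdx (log2 ratio -0.32, -0.40 to -0.25) and Col3a1 at 11372 and 7690 CPM (-0.56, -0.64 to -0.49), of which 38.7% of the mdx UMIs came from 1 cell. Without the top cells Col3a1 was at -0.11, and among the tenocyte-like cells Col1a1 was at 0.09 and Col3a1 at 0.41, with a median of 0.0075 for the fibrillar list. Of 12 other collagens 6 were past 2-fold in mdx and 0 in D2-mdx, at a median of -0.99. They included the basement membrane chains Col4a1 and Col4a2 and the microfibril chain Col6a3. Col8a1 was among them at 832 and 214 CPM (-1.96, -2.30 to -1.61), and at -2.61 among the tenocyte-like cells. Of 11 small leucine-rich proteoglycans 5 were past 2-fold in mdx (Podn, Aspn, Fmod, Kera and Bgn) and 1 in D2-mdx (Chad), at a median of -0.96 (-0.50 among the tenocyte-like cells). Without the rule genes of that list 4 of 9 were past 2-fold in mdx and 1 in D2-mdx, at a median of -0.96, and Podn reached 50 CPM in mdx alone.

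Of 21 matricellular genes 6 were past 2-fold in mdx and 1 in D2-mdx, against 8.83% and 6.86% of all genes, at a median of -0.53. Without the rule genes of the list the counts were 5 and 1 of 19, at a median of -0.38. Ctgf, a growth factor-induced matrix protein, had 110 UMIs in mdx and 63 in D2-mdx, a log2 ratio of -2.20 (-2.67 to -1.74) that stood at -2.18 among the tenocyte-like cells. Of 16 elastic fibre genes 3 were past 2-fold each way, at a median of -0.22, and all 3 on the D2-mdx side and 1 of those on the mdx side reached 50 CPM in the higher library alone. Eln had 80.7% of its mdx UMIs in 1 cell, and its log2 ratio of -3.61 became -1.95 without the top cells. Of 19 collagen-processing genes 1, the crosslinking enzyme Lox, was past 2-fold in mdx and 0 in D2-mdx (median -0.38), which is no higher than the share of all genes on either side.

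Tenocyte genes were past 2-fold on both sides. Of 17 compared 5 were past 2-fold in mdx (Cilp, Tnc, Col12a1, Fmod and Kera) and 3 in D2-mdx (Chad, Angptl7 and Wif1). The shares of all genes were 8.83% and 6.86%, and the median of the list was -0.33. Angptl7 and Wif1 reached 50 CPM in D2-mdx alone. Over the 14 genes with 50 CPM in both libraries 5 were past 2-fold in mdx and 1 in D2-mdx, at a median of -0.43. Cilp, cartilage intermediate layer protein, had 300 UMIs in 15 of 17 mdx cells and 220 in 22 of 43 D2-mdx cells, a log2 ratio of -1.84 (-2.10 to -1.59). Scx (-0.33, -0.78 to 0.14) and Comp (0.00, -0.39 to 0.40) had intervals that include 0. Angptl7 and Wif1 had 62.1% and 92.3% of their D2-mdx UMIs in 1 cell, and Tnc had 63.5% of its mdx UMIs in 1 cell. Without the top cells Tnc stood at -0.55, and Wif1 had 3 UMIs left in D2-mdx and 0 in mdx, too few for a ratio. Without the 4 rule genes of the list, Fmod among them, 4 of 13 were past 2-fold in mdx and 3 in D2-mdx, at a median of -0.20.

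Of 13 adventitial fibroblast genes compared 6 were past 2-fold in D2-mdx and 0 in mdx, beside 6.86% and 8.83% of all genes. The median was 1.00 (1.09 over 12 genes without the rule gene Pi16). Of the 6, Efhd1, Cd55 and Ugdh reached 50 CPM in D2-mdx alone, and over the 8 genes of the list with 50 CPM in both libraries the median was 0.76, with 3 past 2-fold. Cd55 stood at 47.0 CPM in mdx and 177 CPM in D2-mdx (log2 ratio 1.91, 0.97 to 3.02) and Ugdh, the enzyme that makes the sugar precursor of hyaluronan, at 42.3 and 188 CPM (2.15, 1.17 to 3.32). Pi16 had an interval that includes 0 (0.03, -0.25 to 0.31), with 55.0% of its mdx UMIs in 1 cell. There were 8 adventitial fibroblast-like cells in D2-mdx and 1 in mdx, and with at least 4 rule genes required the median of the list was -0.42.

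Of 9 contractile genes compared 6 were past 2-fold in D2-mdx and 1 in mdx, beside 6.86% and 8.83% of all genes. The median was 1.40, and the 1 gene higher in mdx reached 50 CPM in mdx alone. Of the 6, Acta2, Tagln, Myl9 and Tpm2 reached 50 CPM in D2-mdx alone, and of the 4 genes with 50 CPM in both libraries 2 were past 2-fold in D2-mdx and 0 in mdx, at a median of 0.86. Acta2 had 5 UMIs in 4 of 17 mdx cells and 524 in 29 of 43 D2-mdx cells, a log2 ratio of 5.32 (4.08 to 6.94). In D2-mdx 55.9% of its UMIs came from 1 cell, as did 53.3% of those of Tagln, the actin-binding protein transgelin. In mdx Tagln had 7 UMIs, of which 85.7% were in 1 cell. Without the top cells the log2 ratio was 4.85 for Acta2 and 5.59 for Tagln. In mdx this left Acta2 at the floor of 3 UMIs and Tagln below it, so both ratios are uncertain. Without the members that carried 3 markers of pericytes, smooth muscle or myogenic cells Acta2 was at 1.93 and Tagln at 0.39. The pericyte gene Rgs5 stood at 3.53 with those cells and at 0.29 without them. Myl9, a myosin light chain, was at 2.49 in that setting. Acta2 was at 2.93 among the tenocyte-like cells, where mdx had 2 UMIs in 1 cell. That is below the floor of 3 UMIs, so this ratio is uncertain.

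**Figure D5:**
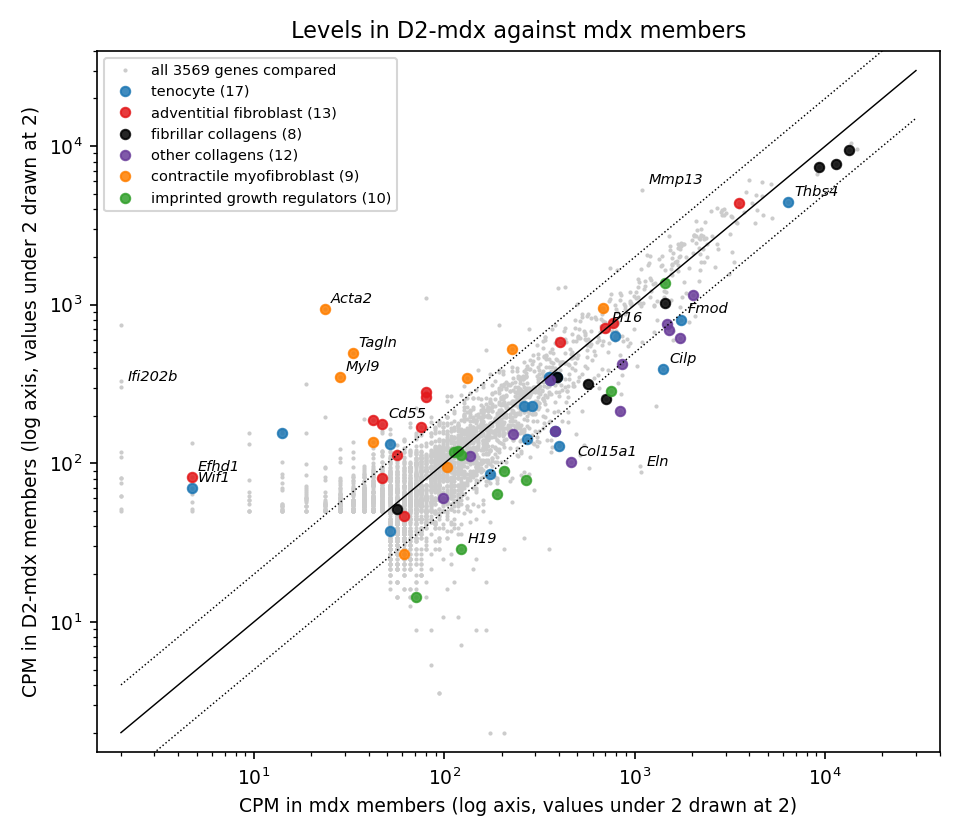
CPM of the 3569 genes compared in D2-mdx members (y axis, log scale) against mdx members (x axis, log scale), with listed genes in colour, equality as the solid line and 2-fold as dotted lines. Contractile and adventitial genes lie above the upper dotted line in 6 cases each, and 6 other collagens and 6 imprinted genes lie below the lower one.

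Signalling genes were past 2-fold on both sides, but many of them reached 50 CPM in the higher library alone. Of 12 genes of the TGF-beta pathway 3 were past 2-fold in mdx and 0 in D2-mdx, beside 8.83% and 6.86% of all genes. Of the 3, 1 reached 50 CPM in mdx alone. The median of the 12 was -0.62, and Tgfb2 was at 306 and 129 CPM (-1.25, -1.75 to -0.74). Of 19 growth factors and antagonists 5 were past 2-fold in mdx and 3 in D2-mdx, beside 8.83% and 6.86% of all genes. Of these, 4 of the 5 and 1 of the 3 reached 50 CPM in the higher library alone. Over the 13 with 50 CPM in both libraries 1 was past 2-fold in mdx and 2 in D2-mdx. Igfbp4 and Igfbp5, IGF-binding proteins, were at 1.68 (1.36 to 2.03) and 1.59 (1.27 to 1.92), while Igfbp3 was at -4.10, with 4 UMIs in D2-mdx and 26 UMIs in 2 mdx cells. Igfbp5 stood at -0.0014 among the tenocyte-like cells, and 445 of its 832 UMIs were in the 10 adventitial fibroblast-like cells, of which 8 were from D2-mdx and 1 from mdx. The Wnt antagonists Sfrp1 and Sfrp2 were at -2.02 and -2.12. Of 17 chemokine and complement genes 4 were past 2-fold in D2-mdx and 2 in mdx, beside 6.86% and 8.83% of all genes. Of these, 3 of the 4 and both of the 2 reached 50 CPM in the higher library alone. Over the 12 with 50 CPM in both libraries 1 was past 2-fold in D2-mdx and 0 in mdx. Ccl8, a monocyte chemokine, had 177 UMIs in D2-mdx and 4 in mdx, but 75.7% of the former were in 1 cell. Ptx3 was at -3.62 with 98.7% of its mdx UMIs in 1 cell, and at 1.79 without the top cells, where 9 UMIs were left in D2-mdx and 1 in mdx.

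Of 22 immediate-early and heat shock genes 7 were past 2-fold in mdx and 1 in D2-mdx, beside 8.83% and 6.86% of all genes. The median of these 22 was -0.51. Egr1 was at 2083 and 845 CPM (-1.30, -1.49 to -1.11) and the chaperone Hspa1b at 1030 and 409 CPM (-1.33, -1.60 to -1.06), while Fos was at -0.29 and Jun at -0.18. Of 10 imprinted genes 6 were past 2-fold in mdx and 0 in D2-mdx, beside 8.83% and 6.86% of all genes. The median was -1.30 over all members and -0.50 among the tenocyte-like cells. Of the 6, 2 reached 50 CPM in mdx alone. Over the 8 genes with 50 CPM in both libraries the median was -0.66, with 4 past 2-fold in mdx. H19 had 41 of its 42 UMIs in the Smoc2 and Col15a1 subgroup. Meg3 was at 748 and 286 CPM (-1.39, -1.71 to -1.06) and the cell cycle inhibitor Cdkn1c at 268 and 78.6 CPM (-1.77, -2.37 to -1.18). In mdx 57.9% of the Meg3 UMIs and 49.1% of the Cdkn1c UMIs were in 1 cell, and without the top cells the ratios were -0.81 and -1.12. In myogenic cells of the same libraries Meg3 was at -1.41, Cdkn1c at -1.11 and H19 at -1.17. In pericyte-like cells Meg3 was at -1.13 (-1.18 to -1.08), while Cdkn1c was at -0.0023 (-0.13 to 0.13) and H19 at 0.45 (0.00 to 0.91). Among the 8 rule genes 2 were past 2-fold in mdx, Smoc2 and Fmod, and 0 in D2-mdx, beside 8.83% and 6.86% of all genes. The rule chose the members by these genes, so their count is a description.

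Several of the widest differences were shared with other cells of the libraries. Among the 10 genes with the highest lower bounds in D2-mdx were Gm10709, Gm10260 and Gm8730, and Rpl29, a ribosomal protein gene, was among the 10 on the mdx side. Gm10709 had 415 UMIs in D2-mdx and 0 in mdx members, a log2 ratio of at least 5.41 by its counting interval. In myogenic cells its log2 ratio of DBA over B10 was 8.62. Rpl29 was at -3.46 in members (D2-mdx over mdx), -3.89 in myogenic cells, and -2.98 in myogenic cells of DBA over B10. Gm10709 and Gm8730 are annotated as processed pseudogenes and Gm10260 as a retrogene, so reads may be shared with near-identical copies and these values are uncertain. Ifi202b, an interferon-inducible gene, had 169 UMIs in 30 of 43 D2-mdx members and 8 in DBA members, and 0 in mdx and B10. It stood at 302 CPM in D2-mdx members, 81.5 CPM in D2-mdx pericyte-like cells and 12.1 CPM in D2-mdx myogenic cells. In DBA it stood at 13.4 CPM in pericyte-like cells and 0.290 CPM in myogenic cells.

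Adipogenic genes were detected, while Pparg and Adipoq were rare or not detected. Of 15 genes 11 had a UMI in mdx and 12 in D2-mdx, at a summed 3333 and 2541 CPM led by the lipocalin Apod. Lpl had a UMI in 51 of 65 members, Cebpb in 46, the lipid droplet gene Plin2 in 25 and Fabp4 in 24. Pparg, the regulator of fat cell formation, had a UMI in 1 member and Adipoq in 0, which allows up to 4.62% of cells with a UMI. Of 22 cell cycle genes 8 had a UMI in mdx and 22 in D2-mdx, at a summed 226 and 458 CPM led by the cyclin Ccnd2. Detection is not matched for depth, with 212707 UMIs in 17 mdx members and 559537 in 43 D2-mdx members. Cenpa (15 UMIs) and Ccnb2 (7 UMIs) were each found in 1 cell. Tyms had a UMI in 18 members, Pcna in 11 and Mki67, a marker of cycling cells, in 2, both from D2-mdx. Dmd had a UMI in 21 members, at 32.9 CPM in mdx and 28.6 CPM in D2-mdx, against 130 and 109 CPM in myogenic cells. A 3′ tag of Dmd does not show whether a transcript carries the mdx mutation. Of 7 genes of the dystrophin complex compared, 2 were past 2-fold in mdx, Sspn and the laminin chain Lama2, and 0 in D2-mdx. The shares of all genes were 8.83% and 6.86%, and 1 of the 2 reached 50 CPM in mdx alone. Of the 9 fibro-adipogenic progenitor genes compared that were not rule genes 1 was past 2-fold in mdx and 0 in D2-mdx, near the 8.83% and 6.86% of all genes, at a median of -0.36.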

How the data were processed

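Single-cell libraries of 4 mouse strains, 1 each, were counted by the authors with Cell Ranger 3.0.1 against mm10 (per the labels), and the deposited values are raw UMI counts of 27998 genes per barcode. The study kept cells of 1000 to 5000 genes with at most 8% mitochondrial UMIs and removed doublets with DoubletFinder, whose calls were not used here; those limits kept 20850 of 27425 barcodes. Depth per library was 49191944 (B10), 67156373 (mdx), 43542853 (DBA) and 75482888 UMIs (D2-mdx). Library pairs shared 5 to 16 barcodes, none of them members.

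Members and gene lists were chosen with earlier results of these data known. UMIs were summed over members per library and scaled to CPM. Intervals were exact Poisson (levels), Clopper-Pearson (shares) and the exact binomial share of 2 counts (ratios), at 95%. A count of 0 was set to 3 UMIs per library or subgroup for ratios and limits. Pericyte-like cells had 3 or more of 8 pericyte markers and myogenic cells 3 or more of 8 myogenic markers with Pax7. Both classes had fewer than 3 rule genes. Subgroups came from Leiden clustering (scanpy 1.11.5; 1000 variable genes, 20 components, 15 neighbours, resolution 0.5) of log-normalized counts without the rule genes. Doublet scores came from Scrublet, with 0.8% expected per 1000 cells. Named genes were the rule and sort genes, the 20 leading genes, the 10 genes each way with the highest lower or lowest upper bound, the 6 leading genes of each subgroup, and, of 36 lists, the 4 members with most UMIs and those with an interval wholly past 2-fold. Other list members named were chosen after their values were seen. Cebpd matched no row. The ratio and interval were tested on simulated Poisson counts for D2-mdx over mdx, where 96.3% of intervals over 4799 genes covered the true value. The simulation held no variation between cells, so it cannot show coverage where single cells set a value. TMM (edgeR 4.0.16) and DESeq2 1.42.0 size factors served as scaling alternatives alone.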

Additional observations from a re-analysis of the deposited data

How the results depend on the processing

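No paired analysis was possible because each strain has 1 library. Shares moved past their own counting interval as follows. With at least 2 rule genes they were 0.126% (B10), 0.420% (mdx) and 1.24% (D2-mdx), and with at least 4 they were 0.00% (0 of 4762 B10 cells), 0.0297% (DBA) and 0.479% (D2-mdx). With at most 5% mitochondrial UMIs B10 had 0 of 3676 cells. D2-mdx stood at 0.446% without cells with 3 other-type markers and at 0.496% after thinning. The cause of these shifts was not tested beyond what each setting removes. A minimum of 100 CPM left 99 and 138 genes past 2-fold of 1818, 50 CPM in both libraries, chosen after seeing the data, left 57 and 101 of 2518, no minimum gave 477 higher in D2-mdx of 5084, and leaving out the top cell of each gene, chosen after seeing the data, gave 397 higher in D2-mdx. The adventitial median was -0.42 with at least 4 rule genes and 1.90 without the top cells. The proteoglycan median was -0.62 with at least 4 rule genes. Among the tenocyte-like cells alone, a setting also chosen after seeing the data, medians were 0.0075 (fibrillar collagens), -0.50 (proteoglycans), -0.92 (immediate-early) and -0.50 (imprinted). Ptx3 reversed to 2.70 with at least 4 rule genes and to 1.79 without top cells. Sema3c reversed to -0.13 with at least 4 rule genes and to -0.092 in tenocyte-like cells. Igfbp5 (-0.0014) and Wisp2 (1.45) reversed in tenocyte-like cells. Col1a1, Col3a1 and Lum also changed sign in tenocyte-like cells and are not among the 6 values counted as reversed below. Resolution 0.3 merged the 2 larger subgroups into 55 cells, and 13 of the 20 leading genes led over myogenic cells alone. Of 746 recomputed values of 64 genes, 605 stayed within their interval, 135 moved and 6 reversed. TMM and DESeq2 scaling kept both counts past 2-fold within 1.5 times. Depth limits the healthy strains most: 1 and 4 cells allow 340 and 61.6 CPM for a gene with no UMI.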

Other observations

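Limb position genes were present in the members at low counts. The limb mesenchyme gene Prrx1 led its list at 371 CPM in mdx and 427 CPM in D2-mdx, and the hindlimb gene Hoxc10 had a UMI in 25 of 65 members, at 65.8 and 39.3 CPM. The hindlimb factor Tbx4 had a UMI in 5 members and the forelimb factor Tbx5 in 2, both of them D2-mdx cells of the adventitial fibroblast-like subgroup.

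Interferon-stimulated genes did not move together between the dystrophic strains. Of 13 compared, 5 were past 2-fold in mdx and 1 in D2-mdx, against 8.83% and 6.86% of all genes, at a median log2 ratio of -0.10. Of these, 3 of the 5 and the 1 reached 50 CPM in the higher library alone. Iigp1 was at -2.85 (-3.78 to -2.0) with 75.0% of its mdx UMIs in 1 cell, and at -1.28 without the top cells. H2-D1, an MHC class I chain, was at 0.71 (0.41 to 1.02) and Ifitm3 at 0.21 (0.02 to 0.40).

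The ratio of Lum differed between the tenocyte-like cells and all members. Its log2 ratio of D2-mdx over mdx was -0.11 over all members and 3.38 among the tenocyte-like cells, and Vcam1 was at 1.37 and 3.04. Both were picked after their values were seen, and Lum is a rule gene. In mdx 52.5% of its UMIs were in 1 cell of the Smoc2 and Col15a1 subgroup, which bears on the value over all members, while the tenocyte-like cells had 13 UMIs in mdx and 347 in D2-mdx.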
